A study of Mus musculus with 19 samples.

Results

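The genes described here are 10 genes of brain blood vessels, namely Cldn5, Cdh5, Pecam1, Flt1, Kdr, Tek, Ly6c1, Mfsd2a, Abcb1a and Vegfa, out of 51789 genes in the count table. Each was taken as the row whose Ensembl identifier, with its version dropped, belongs to that symbol in GENCODE M21, and all 10 were found. RNA was measured by ribosomal-RNA-depleted total RNA sequencing in the dorsal hippocampus, frozen after dissection, of male C57BL/6J mice aged 2 to 4 months, in 19 libraries taken here as 1 mouse each. In experiment 1 every mouse carried tTA, the tetracycline transactivator that switches on tet-controlled transgenes, and every mouse had the exposure labelled SOR. There, 5 mice of genotype tTA+/DN+, which carried Nr4ADN, a dominant-negative Nr4A construct, were set against 6 control mice of genotype tTA+/DN-. In experiment 2 every mouse was DN-, and 4 mice exposed to SOR were set against 4 homecage mice. The SOR group held 1 tTA- and 3 tTA+ mice, and the homecage group held 2 tTA- and 2 tTA+ mice. The labels do not spell out SOR, and the promoter or cell type that drives tTA is not given in the sources used here.

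Brain capillaries are lined by endothelial cells joined by tight junctions, which together with transporters in their membranes form the blood-brain barrier. VEGF-A, made largely by astrocytes and neurons, acts on the endothelial receptors encoded by Flt1 and Kdr, while Tek encodes the receptor for angiopoietins, which steady mature vessels. Cldn5 encodes the main tight junction protein of these cells, Cdh5 and Pecam1 encode adhesion proteins between neighbouring endothelial cells, and Ly6c1 encodes a surface antigen of brain capillaries. Mfsd2a encodes the carrier that brings the omega-3 fatty acid DHA, as lysolipid, into the brain, and Abcb1a encodes P-glycoprotein, the pump that returns drugs to the blood.

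Mfsd2a had the largest increase and Kdr the largest decrease of the 10 genes in any of the 3 comparisons, so the stretch upstream of each RefSeq start is shown for these genes and for Flt1, the other VEGF receptor. Each sequence is the 250 bases before the start on the GRCm38.p6 assembly, written 5′ to 3′ along the gene's own strand, which is the minus strand for all 3. Capitals mark matches to ACGTG, the core of the hypoxia response element, or to GGAAGT on either strand, a core bound by ETS factors, which appears as ACTTCC when it lies on the other strand. The positions are chr4:122961189-122961438 for Mfsd2a, chr5:75978456-75978705 for Kdr and chr5:147726012-147726261 for Flt1.
Mfsd2a: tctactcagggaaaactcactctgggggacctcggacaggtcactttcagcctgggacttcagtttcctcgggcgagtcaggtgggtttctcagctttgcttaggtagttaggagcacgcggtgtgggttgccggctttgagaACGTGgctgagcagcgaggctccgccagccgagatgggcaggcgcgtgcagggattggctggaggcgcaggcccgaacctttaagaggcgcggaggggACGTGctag
Kdr: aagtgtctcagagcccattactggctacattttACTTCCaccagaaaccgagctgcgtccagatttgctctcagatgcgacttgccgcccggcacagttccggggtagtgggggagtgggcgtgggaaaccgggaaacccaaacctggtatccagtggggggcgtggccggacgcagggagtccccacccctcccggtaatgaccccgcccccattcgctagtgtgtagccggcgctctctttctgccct
Flt1: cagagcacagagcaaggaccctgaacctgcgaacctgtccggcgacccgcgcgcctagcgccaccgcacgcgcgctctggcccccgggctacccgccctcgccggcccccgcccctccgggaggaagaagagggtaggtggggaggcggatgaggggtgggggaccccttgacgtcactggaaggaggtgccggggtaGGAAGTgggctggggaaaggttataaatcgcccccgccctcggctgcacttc
All 3 genes are protein-coding, and GENCODE M21 places Mfsd2a (ENSMUSG00000028655.11) at chr4:122946850-122961188, Kdr (ENSMUSG00000062960.10) at chr5:75932827-75978458 and Flt1 (ENSMUSG00000029648.13) at chr5:147561604-147726011. The Mfsd2a window held 2 ACGTG matches, whose first bases lie 107 and 9 bases before the start, and no GGAAGT. The Kdr window held 1 GGAAGT match 217 bases before the start and the Flt1 window 1 match 52 bases before it, and neither held ACGTG. RefSeq windows were at hand for 8 of the 10 genes (not Cdh5 or Pecam1), and in those of Cldn5, Tek, Vegfa, Ly6c1 and Abcb1a neither motif was found. The RefSeq start of Abcb1a used for its window lies 92986 bases from the GENCODE start of that gene. The upstream window of Slc2a1, the gene of the barrier's glucose carrier, held 1 ACGTG match 36 bases before the start. Among 32851 RefSeq promoter windows of the same length, 16.572% held ACGTG and 19.741% held GGAAGT on either strand. The glucocorticoid response element, an inverted repeat searched with free positions, was in 0.387% of all windows and in none of the 8. These matches describe letters in the windows, and the motifs were chosen with the sequences in view.

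Libraries held 22258159 to 66991576 counts in all, with SOR replicate 3 of experiment 2 the smallest. That library stood apart: it had counts for 27815 genes where the other 18 had them for 30165 to 32495, and its neuron markers summed to 4928 CPM where the other 7 libraries of experiment 2 gave 5452 to 5802 CPM. Its chi-square per degree of freedom against the other SOR libraries was 53.0 to 73.4, beside 15.8 to 45.0 among those 3. Levels below are counts per 1000000 counts (CPM) after TMM scaling, a correction for library composition, computed within each experiment. All 10 genes were well above the filter on low counts: the lowest count of any of them in any library was 137, for Cdh5. In the comparison of DN mice with controls, 2 of 22391 genes passed an adjusted p of 0.05, Ptprf and St3gal3. Nr4a1, a member of the receptor family that Nr4ADN targets, stood at 32.4 CPM in DN mice and 34.9 CPM in controls (log2 fold change -0.11, SE 0.242). That gene's count does not show whether the transgene was on.

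To set the genes against each other, CPM was divided by the length of each gene's annotated exons in kilobases (RPKM). In the 4 homecage libraries Cldn5 stood highest at 26.6 ± 3.16 RPKM (SD, n = 4) and did not overlap any other gene. Ly6c1 followed at 8.88 ± 1.19 RPKM and Vegfa at 8.11 ± 0.438 RPKM, and the ranges of these neighbours overlapped. Abcb1a at 6.35 ± 0.112 RPKM and Mfsd2a at 5.91 ± 0.438 RPKM also overlapped. Tek stood at 4.58 ± 0.191 RPKM, apart from the genes on either side. Pecam1 at 3.15 ± 0.213 RPKM overlapped Flt1 at 2.78 ± 0.266 RPKM. Kdr at 1.91 ± 0.176 RPKM and Cdh5 at 1.88 ± 0.244 RPKM were lowest and overlapped each other. The defining endothelial markers Cldn5, Cdh5 and Pecam1 were counted in every library. In whole tissue, fewer cells of a type and less RNA per cell cannot be told apart.

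The genes differed in how steady they were across the libraries of an experiment when its groups were pooled. Abcb1a varied least, with a coefficient of variation (SD over mean of the CPM) of 4.36% over the 11 libraries of experiment 1 and 4.67% over the 8 of experiment 2. In experiment 2 the most variable genes were Ly6c1 at 27.5%, Mfsd2a at 26.9%, Kdr at 21.8% and Cldn5 at 20.96%. These values include the difference between SOR and homecage mice. Within the homecage and the SOR group, the coefficient of variation was 7.41% and 11.8% for Mfsd2a, 9.22% and 9.14% for Kdr, 13.4% and 21.7% for Ly6c1, and 11.9% and 29.5% for Cldn5. Within the SOR group Cldn5 thus varied most of the 10 genes, and within the homecage group Ly6c1. In experiment 1, where every mouse had the SOR exposure, Ly6c1 varied by 6.96% and Mfsd2a by 7.74%, while Kdr varied by 15.1%.

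**Figure D1:**
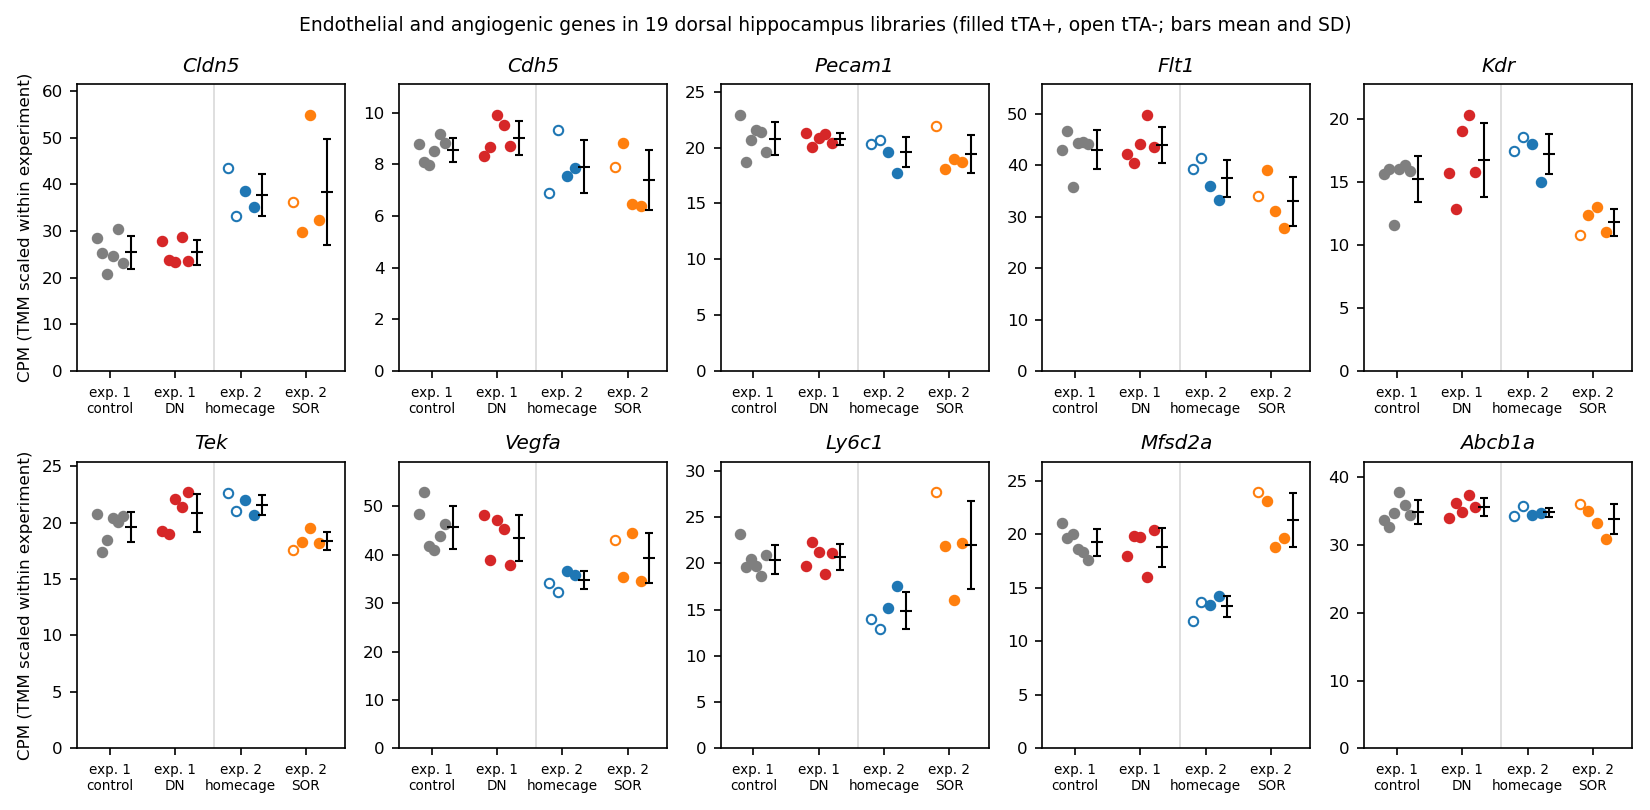
CPM of the 10 genes, 1 panel per gene and 1 point per library (filled tTA+, open tTA-), with groups along the horizontal axis, CPM on each panel's own vertical axis from 0, and a bar for the mean and SD of each group. In experiment 2 the Mfsd2a points of the SOR mice (18.8 to 23.9 CPM) lie above those of the homecage mice (11.9 to 14.3 CPM), and the Kdr points lie below (10.8 to 13.0 against 14.9 to 18.6 CPM).

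SOR against homecage mice in experiment 2 asks how the exposure relates to expression in mice without the DN transgene. Mfsd2a was 1.61-fold higher in SOR mice and Kdr stood at 0.683 of its homecage level, and for each gene the 4 SOR libraries did not overlap the 4 homecage libraries. Neither gene passed an adjusted p of 0.05 in edgeR's quasi-likelihood test. None of the 10 genes did, against 0.0897% of all 22305 genes tested (20 genes, all higher in SOR). At an unadjusted p under 0.05 stood 4 of the 10, with Mfsd2a and Ly6c1 higher and Kdr and Tek lower, where all genes gave 7.6% (3.67% higher and 3.93% lower). Groups did not overlap for 3 of the 10 (Mfsd2a, Kdr and Tek), where all genes gave 5.71% (3.06% with SOR higher and 2.65% with SOR lower). The median log2 fold change of the 10 genes was -0.03, with 4 above 0 and 6 below, beside 0.01 over all genes tested.

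Among the receptors, Kdr, which encodes the main signalling receptor for VEGF-A, stood at 17.4, 18.6, 17.98 and 14.9 CPM in homecage replicates 1 to 4 and at 10.8, 12.4, 13.0 and 11.04 CPM in SOR replicates 1 to 4. Every SOR library was below every homecage library. The log2 fold change was -0.55 (SE 0.109, 95% interval -0.79 to -0.31; unadjusted p = 3.30e-04, edgeR adjusted p = 0.157), the 45th smallest p of all genes. Tek, the angiopoietin receptor, gave 22.6, 20.99, 21.97 and 20.7 CPM in homecage mice and 17.6, 18.3, 19.5 and 18.2 CPM in SOR mice. Here too the groups did not overlap, with a smaller log2 fold change of -0.23 (SE 0.0851; unadjusted p = 0.0193, edgeR adjusted p = 0.621). Flt1, whose product binds VEGF-A tightly and signals weakly, gave 33.3 to 41.5 CPM in homecage and 27.8 to 39.1 CPM in SOR mice. Its groups overlapped, and its log2 fold change was -0.18 (SE 0.116; edgeR adjusted p = 0.682).

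Among the transporters, Mfsd2a stood at 11.9, 13.6, 13.4 and 14.3 CPM in homecage replicates 1 to 4 and at 23.9, 23.1, 18.8 and 19.7 CPM in SOR replicates 1 to 4. The lowest SOR library was above the highest homecage library. The log2 fold change was 0.69 (SE 0.109, 95% interval 0.45 to 0.92; unadjusted p = 5.18e-05, edgeR adjusted p = 0.0525), the 22nd smallest p of all genes. With DESeq2 in place of edgeR the adjusted p was 5.6e-06 for Mfsd2a and 0.0020 for Kdr, and with limma-voom it was 0.0498 and 0.146. Without SOR replicate 3 the edgeR adjusted p was 0.0105 for Mfsd2a, 0.0411 for Kdr and 0.0447 for Ly6c1. With any of the other 7 libraries left out none of the 3 was called, and the adjusted p reached 0.283 for Mfsd2a, 0.646 for Kdr and 0.985 for Ly6c1. Abcb1a, in contrast to Mfsd2a, gave 34.3 to 35.7 CPM in homecage and 30.9 to 36.0 CPM in SOR mice. Its log2 fold change was -0.04 with a 95% interval of -0.22 to 0.14.

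Ly6c1, the capillary surface antigen, gave 14.0, 12.9, 15.1 and 17.5 CPM in homecage and 27.7, 21.8, 16.0 and 22.2 CPM in SOR mice. The groups overlapped because SOR replicate 3 lay below homecage replicate 4. The log2 fold change was 0.56 (SE 0.156; unadjusted p = 0.00388, edgeR adjusted p = 0.489). With all 19 libraries in 1 fit Ly6c1 was called (edgeR adjusted p = 0.0251). The junction genes gave smaller differences. Cldn5 stood at 33.3 to 43.5 CPM in homecage mice and at 29.9 to 54.8 CPM in SOR mice, where SOR replicate 3 was the highest library, and its log2 fold change was 0.02 (SE 0.173). Cdh5 gave a log2 fold change of -0.09 (SE 0.147) and Pecam1 one of -0.01 (SE 0.0981), and the groups overlapped for both. The 95% interval of Pecam1 ran from -0.23 to 0.20 and that of Cldn5 from -0.36 to 0.40, so a difference of that size was not excluded for either gene.

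The ligand gene Vegfa gave 34.2, 32.4, 36.6 and 35.9 CPM in homecage mice and 43.0, 35.4, 44.6 and 34.6 CPM in SOR mice. SOR replicates 1 and 3 lay above every homecage library and replicates 2 and 4 within the homecage range. The log2 fold change was 0.18 (SE 0.103; edgeR adjusted p = 0.671).

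**Figure D2:**
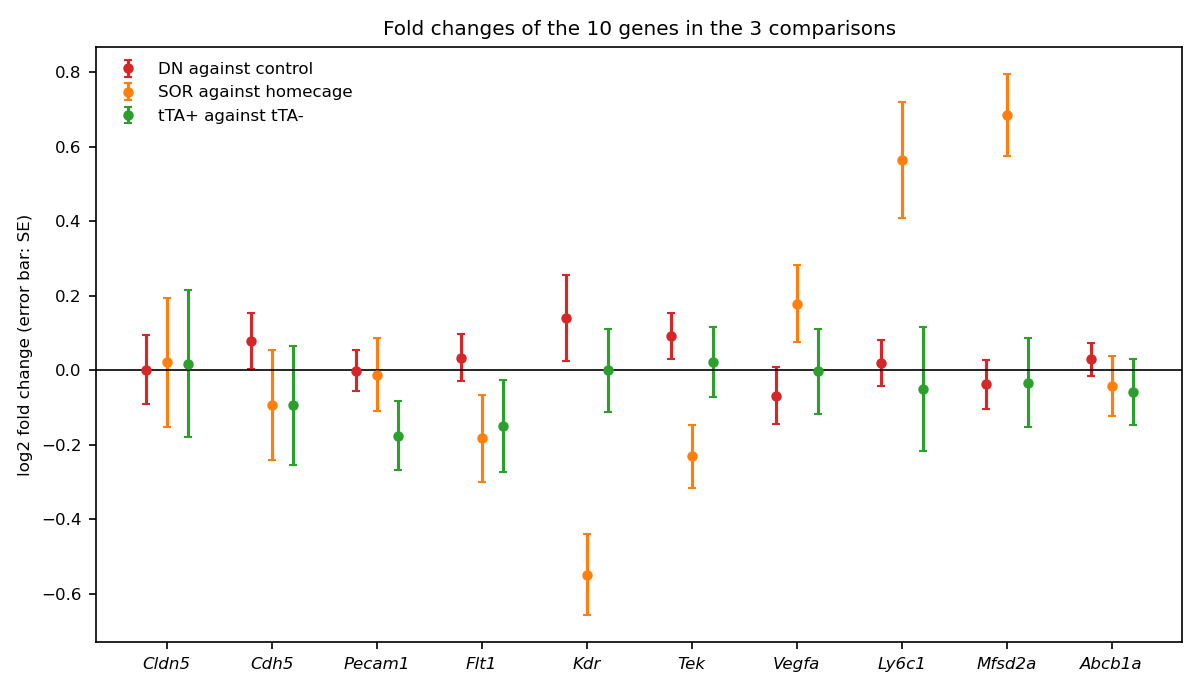
Log2 fold change of each of the 10 genes in the 3 comparisons, with bars of 1 standard error from the edgeR fit. The SOR values run from -0.55 (Kdr) to 0.69 (Mfsd2a), whereas the values for DN run from -0.07 to 0.14 and those for tTA from -0.18 to 0.02.

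The SOR and homecage groups differ in their share of tTA+ mice, so the comparison was also made in tTA+ mice alone, 3 SOR against 2 homecage. Mfsd2a gave a log2 fold change of 0.57 (unadjusted p = 0.00632) and Kdr one of -0.44 (unadjusted p = 0.0265), and no gene of the whole table passed the edgeR adjusted threshold in that fit. Ly6c1 gave 0.30 there (unadjusted p = 0.143). With tTA as a covariate over all 8 mice, Mfsd2a gave 0.69 (edgeR adjusted p = 0.124) and Kdr -0.55 (edgeR adjusted p = 0.320).

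The ratio of Mfsd2a to Kdr within a library does not depend on scaling, and was looked at after the values of both genes were seen. It was 0.685 to 0.954 in homecage mice and 1.44 to 2.22 in SOR mice of experiment 2. In experiment 1 it was 1.11 to 1.73 in control mice and 0.789 to 1.54 in DN mice. DN replicate 4 (0.789) lay within the homecage range, and the other 4 DN libraries, at 1.03 to 1.54, and all 6 controls lay above it. On a single scaling of all 19 libraries, Mfsd2a stood at 12.2 to 14.6 CPM in homecage mice, 19.8 to 24.5 in SOR mice of experiment 2, 17.3 to 20.6 in controls of experiment 1 and 15.7 to 19.98 in DN mice. The homecage group was the lowest of the 4 for Mfsd2a. Kdr on that scaling stood at 15.3 to 18.99 CPM in homecage mice and 11.02 to 13.7 in SOR mice of experiment 2. In experiment 1 it was 11.3 to 16.04 in controls and 12.6 to 19.9 in DN mice, and both overlapped the homecage range. Cldn5 averaged 38.5 CPM in homecage and 39.6 in SOR mice of experiment 2, but 25.0 in each group of experiment 1. Mice of different experiments also differ by experiment, so exposure and experiment cannot be told apart there.

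**Figure D3:**
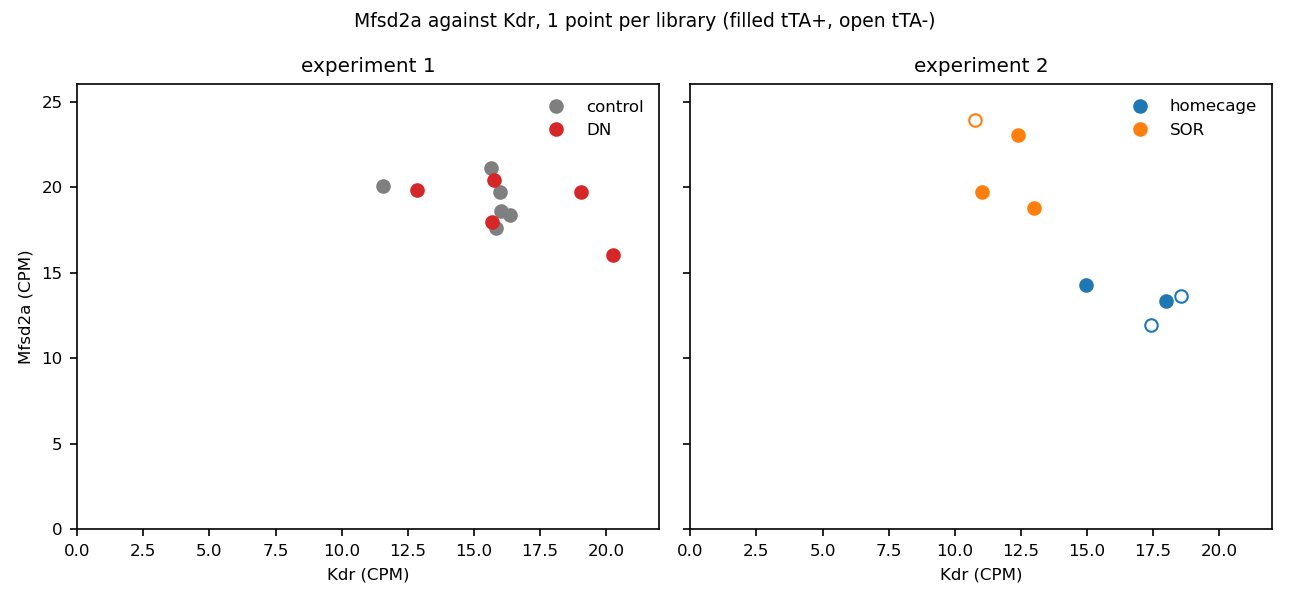
Mfsd2a against Kdr, both in CPM, 1 point per library (filled tTA+, open tTA-), coloured by group, with experiment 1 on the left and experiment 2 on the right. Homecage libraries sit at low Mfsd2a and high Kdr, and the SOR libraries of experiment 2 at high Mfsd2a and low Kdr, with no overlap on either axis.

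Other genes of brain endothelium and the barrier, a list of 25, showed 1 call in this comparison. Slc2a1, which encodes the glucose carrier GLUT1, rose from 44.8 to 66.9 CPM (log2 fold change 0.58, SE 0.0890, edgeR adjusted p = 0.0432). Its values were 45.5, 42.6, 45.4 and 45.8 CPM in homecage replicates 1 to 4 and 75.8, 64.5, 67.6 and 59.8 CPM in SOR replicates 1 to 4. The groups did not overlap. Its log2 fold change stayed between 0.51 and 0.63 with 1 library left out and between 0.49 and 0.60 under the other alternatives run. The call was lost with tTA as a covariate (edgeR adjusted p = 0.0823), in tTA+ mice alone (edgeR adjusted p = 0.998), with the replicate block, and without the libraries of high choroid plexus score. It was also lost when any of homecage replicates 1 to 4 or SOR replicates 1 or 2 was left out (edgeR adjusted p 0.118 to 0.265). Of the 25, 3 had an unadjusted p under 0.05 in the lower direction. They were Slco1a4, the organic anion carrier (48.3 against 59.4 CPM, log2 fold change -0.30, unadjusted p = 0.0109), and, named after their values were seen, Eng, the TGF-beta co-receptor endoglin (-0.53), and Erg, an endothelial transcription factor (-0.41). The median log2 fold change of the 25 was 0.04, with 13 above 0 and 12 below.

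In the list of 20 genes of VEGF, angiopoietin and Notch signalling, none was called in SOR mice and 2 had an unadjusted p under 0.05, both lower. Ptprb, the endothelial phosphatase that restrains the Tek receptor, gave 31.6 against 40.9 CPM (log2 fold change -0.37, unadjusted p = 0.0143). Vegfc, a ligand of the related receptor Flt4, gave 2.75 against 3.78 CPM with no overlap (log2 fold change -0.46, unadjusted p = 0.0171). The list's median was -0.05.

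Mural cell genes, the list of pericytes and smooth muscle, had 11 of 12 genes tested and none called. Pdgfrb, the pericyte receptor for PDGF-B, gave a log2 fold change of -0.37 (unadjusted p = 0.0141) and Notch3 one of -0.36 (unadjusted p = 0.0426). The median was -0.07. Of the 10 hypoxia-responsive genes, none was called and 3 had an unadjusted p under 0.05 in the higher direction, among them Ddit4 (0.35) and Adm, which encodes the vessel-widening peptide adrenomedullin (0.57). The median was 0.08, with 9 of 10 above 0.

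**Figure D4:**
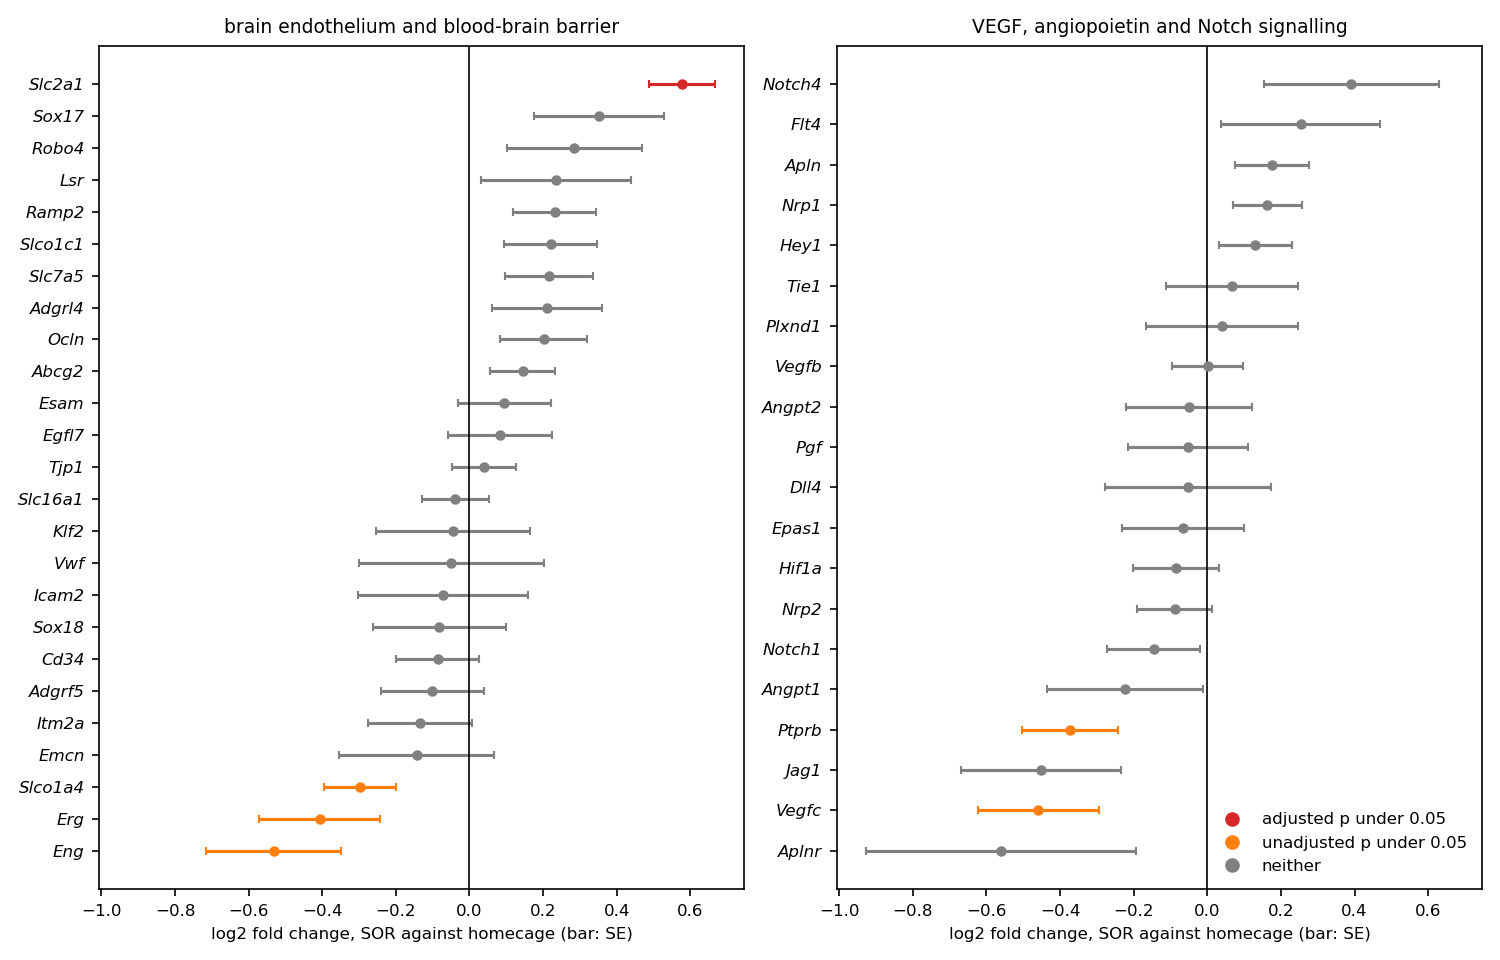
Log2 fold change for SOR against homecage of the 25 brain endothelium and barrier genes (left) and the 20 signalling genes (right), 1 row per gene, with bars of 1 standard error. Slc2a1 at 0.58 is the 1 gene called, and Slco1a4, Erg, Eng, Ptprb and Vegfc are coloured for an unadjusted p under 0.05 on the lower side.

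Markers of other cells were set beside these values. The 8 choroid plexus markers summed to 22.4 to 2190 CPM in SOR mice and 43.2 to 170 CPM in homecage mice, none of them at 0 in any of these libraries. All 8 had a log2 fold change above 0, 5 of them with an unadjusted p under 0.05 and none called. SOR replicates 1 and 2 carried this signal, at 993 and 2190 CPM. In those 2 libraries Mfsd2a stood at 23.9 and 23.1 CPM and Kdr at 10.8 and 12.4 CPM. In SOR replicates 3 and 4, whose choroid plexus markers summed to 22.4 and 55.8 CPM, Mfsd2a stood at 18.8 and 19.7 CPM and Kdr at 13.0 and 11.04 CPM. The homecage maximum of Mfsd2a was 14.3 CPM and the homecage minimum of Kdr 14.9 CPM. Without the libraries whose choroid plexus score (mean log2 CPM of the list, centred within an experiment) was above 1, Mfsd2a gave 0.53 (unadjusted p = 0.00170), Kdr -0.53 (unadjusted p = 0.00457) and Ly6c1 0.36 (unadjusted p = 0.0554). That fit held 2 SOR libraries, replicates 3 and 4, both tTA+, against 4 homecage libraries. SOR replicate 3 is the library described above as standing apart. Slc2a1 then gave 0.50 and was no longer called (edgeR adjusted p = 0.333). Of the oligodendrocyte markers, 8 of 8 had a log2 fold change above 0, with a median of 0.18, 3 at an unadjusted p under 0.05 and none called, and their summed level was 6631 to 7731 CPM in SOR and 6001 to 7170 CPM in homecage mice. At an unadjusted p under 0.05 also stood 2 of 6 microglial, 2 of 8 astrocyte and 1 of 5 blood markers, all higher, and none of 6 fibroblast or 8 neuron markers. As whole lists, the microglial markers split 3 above 0 and 3 below (median 0.04), and the astrocyte markers 4 and 4 (median 0.05). Of the blood markers 4 lay above 0 and 1 below. Over the 8 libraries of experiment 2, which fall into both exposure groups, the scores of several lists ran with these genes. For Flt1, r was -0.86 with the oligodendrocyte, -0.84 with the microglial, 0.78 with the neuron and 0.82 with the pericyte score. For Kdr, r was -0.56 with the oligodendrocyte, -0.70 with the hypoxia-responsive and 0.73 with the pericyte score. For Mfsd2a, r was 0.45 with the oligodendrocyte, 0.61 with the hypoxia-responsive, 0.61 with the choroid plexus and -0.63 with the pericyte score. The part of these markers in the vessel results was not tested.

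**Figure D5:**
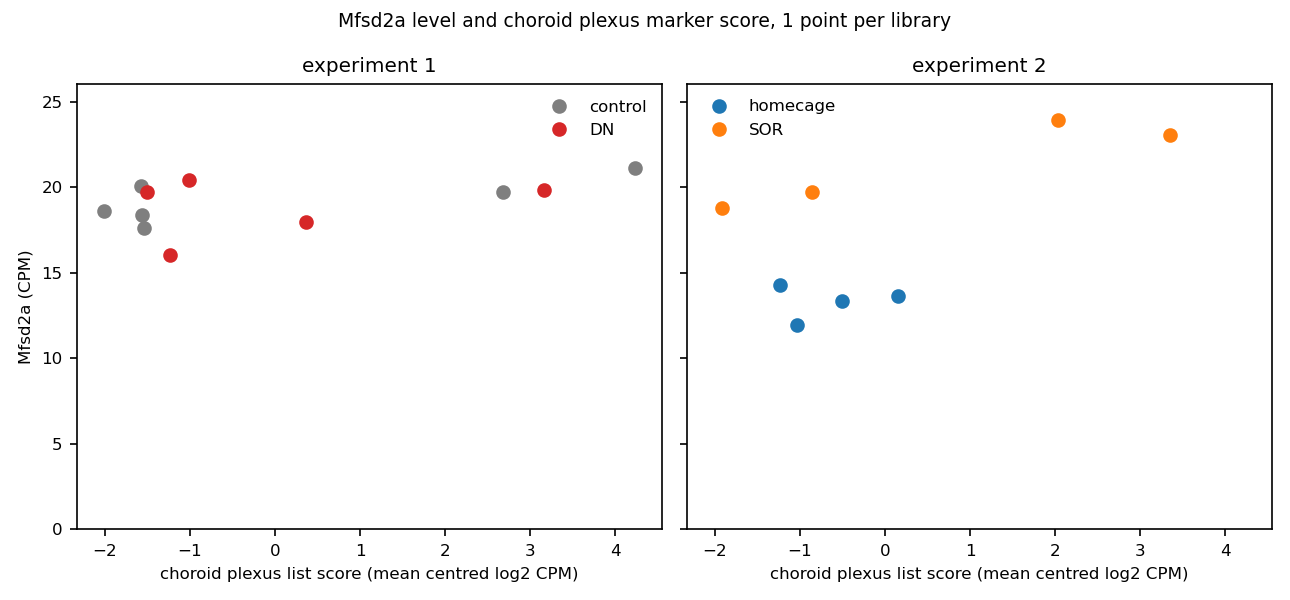
Mfsd2a in CPM against the choroid plexus score, 1 point per library, with experiment 1 on the left and experiment 2 on the right. In experiment 2 Mfsd2a is 18.8 and 19.7 CPM in the 2 SOR libraries with low scores (-1.91 and -0.86) and 23.1 and 23.9 CPM in the 2 with scores above 1. The 4 homecage libraries lie at 11.9 to 14.3 CPM.

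DN against control mice in experiment 1 asks whether the Nr4ADN transgene relates to expression in mice that all had the SOR exposure. None of the 10 genes was called, against 0.00893% of all 22391 genes tested, and none had an unadjusted p under 0.05, where all genes gave 3.83%. The log2 fold changes ran from -0.07 to 0.14 with a median of 0.02, 7 above 0 and 3 below, beside a median of 6.2e-05 over all genes. Across the 10 genes the 95% intervals reached no lower than -0.23 and no higher than 0.39. None of the 10 had groups that did not overlap, where all genes gave 0.299%.

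Kdr had the largest value. It stood at 15.7, 12.8, 19.1, 20.3 and 15.8 CPM in DN replicates 1 to 5 and at 11.6 to 16.4 CPM with a median of 15.9 in the 6 controls. DN replicates 3 and 4 lay above every control and replicate 2 below all but 1 of them. The log2 fold change was 0.14 (SE 0.115; edgeR adjusted p = 0.999). It was 0.06 without DN replicate 4, 0.07 without control replicate 3, 0.09 without DN replicate 3 and 0.22 without DN replicate 2 (unadjusted p = 0.0394), and was not called in any of these fits. Tek gave 19.2, 18.98, 22.05, 21.4 and 22.7 CPM in DN mice and 17.4 to 20.8 CPM with a median of 20.2 in controls, a log2 fold change of 0.09 (SE 0.0623; unadjusted p = 0.159). Mfsd2a gave 18.0, 19.8, 19.7, 16.0 and 20.4 CPM in DN mice and 17.6 to 21.1 CPM with a median of 19.2 in controls. Its log2 fold change was -0.04, with a 95% interval of -0.17 to 0.10. Ly6c1 gave 0.02 (interval -0.11 to 0.15), and Abcb1a 0.03 (interval -0.06 to 0.12).

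The junction genes were as close. Cldn5 gave 25.4 ± 2.62 CPM in DN mice and 25.5 ± 3.51 in controls (SD), Cdh5 9.02 ± 0.660 and 8.56 ± 0.454 CPM, and Pecam1 20.8 ± 0.544 and 20.8 ± 1.49 CPM. Flt1 stood at 44.0 ± 3.49 and 43.1 ± 3.82 CPM. Vegfa stood at 43.5 ± 4.80 CPM in DN mice and 45.7 ± 4.48 CPM in controls, a log2 fold change of -0.07 (SE 0.0773). The groups overlapped for each of these genes, and none had an unadjusted p under 0.05.

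Of the other vessel lists, none had a call for DN. Of the 25 barrier genes, 3 had an unadjusted p under 0.05, all higher, with a median log2 fold change of 0.03 over the list (15 above 0 and 10 below). Vwf, which encodes the clotting protein von Willebrand factor, gave 9.38, 12.6, 10.3, 17.1 and 13.7 CPM in DN mice and 8.52 to 10.2 CPM in controls (log2 fold change 0.43, unadjusted p = 0.00412, edgeR adjusted p = 0.999). Adgrf5, an adhesion G protein-coupled receptor, gave 0.11 (unadjusted p = 0.0215). In the signalling list, with a median of -0.01, 2 of 20 genes had an unadjusted p under 0.05. They were Tie1, the partner receptor of Tek, at 0.17 (unadjusted p = 0.0308) and Vegfb, a ligand of the Flt1 receptor, at -0.16 (unadjusted p = 0.0195). The pericyte genes Vtn and Abcc9 gave 0.12 each (unadjusted p = 0.0593 and 0.0594), and of the hypoxia-responsive genes Ndrg1 gave -0.10 and Ankrd37 0.13. Choroid plexus markers summed to 24.9 to 1650 CPM in DN mice and 18.4 to 4127 CPM in controls. Without the 3 libraries of score above 1, Kdr gave 0.25 and no member was called. At an unadjusted p under 0.05 stood 2 of 8 oligodendrocyte and 2 of 8 astrocyte markers, all lower, and no pericyte, fibroblast, hypoxia-responsive, microglial, blood or neuron gene.

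tTA+ against tTA- mice of experiment 2, with exposure in the model, asks whether the transactivator alone relates to expression. None of the 10 genes was called, against 0.358% of 22904 genes tested, and none had an unadjusted p under 0.05, where all genes gave 5.71%. The log2 fold changes ran from -0.18 to 0.02, with a median of -0.04 beside 0.01 over all genes. Pecam1 had the smallest p. It stood at 20.3 and 20.7 CPM in the tTA- homecage mice and 21.9 CPM in the tTA- SOR mouse, and at 19.6, 17.7, 18.1, 18.97 and 18.7 CPM in the tTA+ mice. The groups did not overlap, which held for 1 of the 10 genes and for 5.8% of all genes (3.4% with tTA+ lower). The log2 fold change was -0.18 (SE 0.0921; unadjusted p = 0.0843).

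Kdr gave a log2 fold change of 8.5e-05 with a 95% interval of -0.25 to 0.25, and Mfsd2a -0.03 with an interval of -0.30 to 0.23. Flt1 gave -0.15 (SE 0.123), which became 0.14 with the replicate block, and Vegfa gave -0.0033 (SE 0.115). In the signalling list 1 gene was called: Jag1, a Notch ligand, stood at 13.9, 13.2 and 11.1 CPM in the 3 tTA- mice and at 8.18, 8.61, 7.05, 7.05 and 6.74 CPM in the 5 tTA+ mice. It fell by 0.68 on the log2 scale (SE 0.105, edgeR adjusted p = 0.0247). Its log2 fold change stayed between -0.70 and -0.66 with 1 library left out and between -0.75 and -0.61 under the other alternatives run. The call was lost without the libraries of high choroid plexus score (adjusted p = 0.282) and when any of homecage replicates 1 to 4 or SOR replicates 1 or 4 was left out (adjusted p 0.0668 to 0.360). It was also lost with the replicate block, where tTA differs within 1 pair of libraries only. Without the libraries of high choroid plexus score, or without SOR replicate 1, no tTA- SOR mouse is left. Those fits compare tTA in homecage mice only. Choroid plexus markers summed to 66.0 to 993 CPM in tTA- mice and 22.4 to 2190 CPM in tTA+ mice, and their part was not tested. Angpt1, a ligand of the Tek receptor, gave 0.39 (unadjusted p = 0.0847), and in the barrier list, with a median of -0.09, Sox18 gave -0.31 (unadjusted p = 0.0981) and Emcn -0.34 (unadjusted p = 0.115). Abcc9 gave -0.26 and Anpep -0.69 in the pericyte list, and Egln3 0.47 (unadjusted p = 0.0274) and Ldha 0.18 in the hypoxia-responsive list. At an unadjusted p under 0.05 stood 1 of 8 oligodendrocyte and 1 of 10 hypoxia-responsive genes, higher, and 2 of 8 neuron markers, 1 in each direction, and no gene of the barrier, pericyte, fibroblast, choroid plexus, blood, astrocyte or microglial lists. Prox1, a marker of dentate granule neurons in the neuron list, gave 68.2 CPM in tTA+ and 112 CPM in tTA- mice with no overlap (log2 fold change -0.67, unadjusted p = 0.00459, edgeR adjusted p = 0.350). All 8 oligodendrocyte and all 6 microglial markers had a log2 fold change above 0, with medians of 0.18 and 0.08. The part of these markers in the Jag1 value was not tested.

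Across the 19 libraries, with each gene centred within its experiment, pairs of endothelial genes ranged from strongly opposite to strongly alike. The 36 pairs among the 9 endothelial genes had a median Pearson r of 0.15, from -0.77 to 0.86, with 21 pairs above 0. The 2 genes of a pair are measured in the same libraries, which differ in depth and fall into 4 groups. Ly6c1 and Mfsd2a had the highest r at 0.86 (0.69 in experiment 1 and 0.88 in experiment 2). Kdr and Tek followed at 0.77, and Flt1 and Kdr at 0.74. Kdr and Mfsd2a had the lowest r at -0.77, and this sign held in both experiments (-0.52 and -0.92). In experiment 2 this value includes the difference between SOR and homecage mice.

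Vegfa had a median r of -0.07 with the 9 endothelial genes. With the score of the hypoxia-responsive list it had r = 0.78 (0.77 in experiment 1 and 0.86 in experiment 2). The genes most like Vegfa among 21730 ranked were Nfil3 (r = 0.890, Spearman rho = 0.854), Atf4 (0.855), Hspa4 (0.842), Polr2m (0.826) and Adm (0.821). Nfil3 and Atf4 encode bZIP transcription factors and Hspa4 a chaperone. The genes most like the mean of the 9 endothelial genes were Nkd2 (r = 0.755, Spearman rho = 0.760), Rexo5 (0.737), Kank2 (0.735), Mrc2 (0.718), Gm15808 (0.714), Gm7664 (0.711), Clcn1 (0.707) and Gm7967 (0.671). None of these 8 was in the endothelial or barrier list. The 9 genes averaged did not move as 1 set, since their pairs had a median r of 0.15, from -0.77 to 0.86. How high the top r of 21730 unrelated genes would reach over 19 libraries was not tested, so these names are a description only.

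Ly6c1 and Abcb1a each have a near copy that could share reads with them. The longest open reading frames of Ly6c1 and Ly6c2 were identical at 359 of 396 aligned bases (90.7%), and those of Abcb1a and Abcb1b at 3363 of 3822 (88.0%). Ly6c2 had at most 0.416 CPM in any library, and Abcb1b had 4.99 to 7.97 CPM. For SOR against homecage, Abcb1b gave a log2 fold change of -0.23 (unadjusted p = 0.139). How reads that fit both copies were counted is not given in the sources used here, so the levels of Ly6c1 and Abcb1a are uncertain to that extent.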

How the data were processed

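Whole-number counts per gene for 19 libraries were deposited by the authors as 1 table. Per the submitters' processing notes, STAR, SAMtools 1.6, featureCounts 1.4.4 and the mm10 build were used. The annotation and the use of strand are not given in the sources used here, so genes that overlap others or have near copies are uncertain. Libraries held 22258159 to 66991576 counts. The labels do not say outright that each library is a separate mouse, so p-values measure the spread between these samples.

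Symbols, positions and exon lengths came from GENCODE M21 (GRCm38), which holds 51596 of the 51789 identifiers, and promoter windows came from RefSeq (GRCm38.p6). Each experiment was fitted alone with edgeR 4.0.16 in R 4.3.3: TMM scaling, filterByExpr, robust glmQLFit and two-sided glmQLFTest, with Benjamini-Hochberg adjustment over all genes tested and calls at 0.05. tTA was tested with exposure in the model. Log2 CPM used a prior count of 2. The fits were tested on simulated counts. Alternatives were DESeq2 1.42.0, limma-voom (limma 3.58.1), other scaling, filter, threshold and sample choices, and each library left out in turn.

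The members and lists were chosen with earlier results of these data known. The text names all 10 genes, the near copies Ly6c2 and Abcb1b, and, from the lists of other vessel and hypoxia-responsive genes, called members and those with the 2 smallest p per comparison. The rule also covers the lists of other cell types, which are given here as counts and levels of the whole list and not gene by gene, apart from Prox1. It also names the 8 genes most like the mean of the 9 endothelial genes and the 5 most like Vegfa. Genes outside this rule are marked as chosen after their values were seen, apart from Nr4a1, Ptprf and St3gal3, which describe the DN comparison.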

Additional observations from a re-analysis of the deposited data

Results flagged for a closer look

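In 3 of 50 sets of a gene and a group of 4 to 6 libraries, 1 library stood far from the rest by Dixon's criterion at the 95% level. Chance gives about 1 such set in 20. Flt1 stood at 35.7 CPM in control replicate 3 of experiment 1, where the other 5 controls lay between 42.9 and 46.7 CPM. The same library had the lowest Kdr, 11.6 CPM against 15.6 to 16.4 CPM in the other controls. Both genes encode VEGF receptors, and Mfsd2a in that library was 20.05 CPM, within the range of the controls. The 8 oligodendrocyte markers summed to 8398 CPM in that library, the highest of experiment 1, against 7149 to 7739 CPM in the other controls. Over the 11 libraries of experiment 1, DN and control together, the oligodendrocyte score had r = -0.83 with Flt1 and -0.80 with Kdr, and its part was not tested. Vegfa stood at 44.6 CPM in SOR replicate 3, where the other 4 tTA+ mice of experiment 2 lay between 34.6 and 36.6 CPM.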

How the results depend on the processing

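No member was called for DN or tTA under any alternative run. For SOR the count of members called was 0 with other size factors, the replicate block, a term for tTA, tTA+ mice by themselves or without the libraries of choroid plexus score above 1 (the choroid-rich libraries). It was 1 (Mfsd2a) at an adjusted p under 0.1, with no filter and with limma-voom. It was 2 with DESeq2 (Mfsd2a and Kdr), 2 with all 19 libraries in 1 fit (Mfsd2a and Ly6c1), and 0 to 3 with 1 library left out (3 without SOR replicate 3). Mfsd2a stayed positive and Kdr negative in every SOR alternative run. The SOR count over all genes, 20, became 35 at 0.1, 36 with no filter, 116 with DESeq2, 100 with all 19 libraries, 9 with the replicate block, 11 with a term for tTA, 0 in tTA+ mice by themselves, 1 without the choroid-rich libraries (an alternative chosen after seeing the data) and 1 to 50 with 1 library left out (1 without homecage replicate 1, 2 or 3, and 50 without SOR replicate 3). The tTA count, 82, became 133 at 0.1, 265 with no filter, 255 with DESeq2, 384 with all 19 libraries, 0 with the replicate block, 944 in homecage mice alone, 15 without the choroid-rich libraries and 10 to 290 with 1 library left out (10 without SOR replicate 1, 290 without SOR replicate 3). With the replicate block the tTA term rests on 1 pair of libraries. Without the choroid-rich libraries, or without SOR replicate 1, it rests on the homecage mice. The causes were not tested.

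Some log2 fold changes changed sign, most of them small in the main fit, though that of Flt1 for tTA was not. For DN these were Cldn5 with DESeq2 (-0.0014) and the block (-0.022), Pecam1 with limma-voom (0.0057), and without the choroid-rich libraries Pecam1 (0.0092), Vegfa (0.049) and Abcb1a (-0.012). For SOR these were Cldn5 with limma-voom (-0.036) and the block (-0.0091), and Pecam1 with all 19 libraries (0.036) and with a tTA term (0.029). For tTA, Kdr changed with DESeq2 (-7.8e-04), limma-voom (-0.013) and all 19 libraries (-0.0047), and Cldn5 with limma-voom (-0.0093). With the block, tTA gave Cldn5 -0.19, Cdh5 0.028, Flt1 0.14, Kdr -0.049, Ly6c1 0.29, Mfsd2a 0.11 and Abcb1a 0.026. Within a replicate number tTA differed only for replicate 2 (homecage tTA-, SOR tTA+). These values thus rest on that 1 pair of libraries, set against the SOR difference of the other pairs. With no exposure term, tTA gave Kdr -0.16, Tek -0.045, Vegfa 0.034, Ly6c1 0.030 and Mfsd2a 0.11. In homecage mice alone it gave Cldn5 -0.047, Kdr -0.12, Tek -0.027, Vegfa 0.13, Ly6c1 0.28 and Mfsd2a 0.11, and without the choroid-rich libraries Cldn5 -0.056, Kdr -0.13, Tek -0.033, Vegfa 0.12, Ly6c1 0.28 and Mfsd2a 0.11. Without the choroid-rich libraries no tTA- SOR mouse is left, so both of these fits compare tTA in homecage mice only. With 1 library left out, DN ranged from -0.052 to 0.060 for Cldn5, -0.017 to 0.060 for Flt1, -0.011 to 0.058 for Ly6c1, -0.068 to 0.016 for Mfsd2a and -0.032 to 0.027 for Pecam1. SOR ranged from -0.20 to 0.12 for Cldn5 and -0.076 to 0.021 for Pecam1. tTA ranged from -0.19 to 0.011 for Cdh5, -0.12 to 0.13 for Cldn5, -0.13 to 0.090 for Kdr, -0.17 to 0.28 for Ly6c1, -0.11 to 0.11 for Mfsd2a, -0.029 to 0.059 for Tek and -0.050 to 0.13 for Vegfa.

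The labels do not say whether replicate numbers pair the libraries, and with so few pairs the correlations do not settle it. Same-numbered libraries correlated at -0.05 to 0.19 in experiment 1, where 1 of 5 correlated best with its own number. In experiment 2 they correlated at 0.05 to 0.39, and 2 of 4 did so. With the replicate block Slc2a1 was not called (edgeR adjusted p = 0.123). Nor was Jag1, whose tTA term then rests on 1 pair of libraries. Groups of 3 to 6 libraries limit the precision of every comparison.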
